A study of Mus musculus with 24 samples.

Results

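The comparison described here sets inguinal subcutaneous white fat of D316A-Tg mice against that of WT-Tg mice on a chow diet, in 12 of the 24 RNA-seq libraries of the series. Its members were the 6 chow columns named D316A-Tg, numbered 7 to 12, and the 6 named WT-Tg, numbered 1 to 6, with all genes of that count table. All mice were C57BL/6J and 16 weeks old, and all carried a transgene of AMPKγ1, a regulatory subunit of AMP-activated protein kinase (AMPK). The transgene was the wild-type form in WT-Tg mice and the gain-of-function D316A form in D316A-Tg mice. The sources used here do not give the promoter or the tissues that drive it, and the controls carry a transgene too, so the contrast is one between forms of the subunit. Whether each library is a separate animal is not stated in the labels; p-values therefore measure only the spread between these samples, which may be technical. The study asked, per its title, about AMPK activation, obesity and thermogenesis in this depot. Here the comparison is described for the genes that answer cellular stress, with and without a term for libraries that held lymph node RNA.

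AMPK is a trimer of a catalytic α, a scaffolding β and a nucleotide-binding γ subunit, which is switched on when AMP and ADP accumulate and which slows energy-consuming pathways while favouring mitochondrial oxidation. Cells that hold more active mitochondria need more of the chaperones and proteases that fold and clear imported proteins, and more of the enzymes that remove superoxide and peroxides. Separate programmes answer damage elsewhere: the heat shock response in the cytosol, the unfolded protein response of the endoplasmic reticulum (ER), the integrated stress response through the transcription factor ATF4, the antioxidant response through NRF2, and the stress kinases.

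The WT-Tg libraries held 13254536 to 17685717 counts each, and the D316A-Tg libraries 14756322 to 17766546. Levels are given as CPM, counts scaled by TMM to 1e+06 per library. The tissue label held for fat: 10 of 10 mature adipocyte markers passed the filter on low counts, with a summed level of 19748 to 53369 CPM in WT-Tg and 25099 to 78034 CPM in D316A-Tg. Glycam1, a mucin of lymph node high endothelial venules, was at 39.4 to 82.2 CPM before TMM scaling in 6 libraries, 4 of WT-Tg (numbers 1 to 4) and 2 of D316A-Tg (numbers 8 and 11), and at most at 0.068 CPM in the other 6, although the protocol states that the node was dissected away. Of that list of 8 node markers Ccl19 was at 0 in every library. The 6 libraries with node signal also had summed B lymphocyte markers, of 1225 to 1595 CPM in WT-Tg and 584 and 1185 CPM in D316A-Tg. The others had at most 7.93 CPM. The lymph node term marks node signal as present or absent and does not carry its amount. With it, 2 of 7 B lymphocyte markers still fell (28.6%, median log2 fold change -0.64), where 15.2% of all genes did. Brown and beige adipocyte markers summed to 115 to 803 CPM in WT-Tg and 806 to 1688 CPM in D316A-Tg, and 3 of 7 rose without a term and 5 with one. Skeletal muscle markers summed to 13 to 12182 CPM in WT-Tg and 11 to 589 CPM in D316A-Tg. In both strata every WT-Tg library stood above every D316A-Tg library in summed endothelial, smooth muscle and Schwann cell markers. Endothelial markers were at 429 to 510 against 291 and 406 CPM with node signal, and at 733 and 782 against 286 to 511 CPM without. Smooth muscle markers were at 382 to 553 against 281 and 363 CPM with it, and at 716 and 623 against 255 to 385 CPM without. Schwann cell markers were at 116 to 161 against 79.5 and 96.9 CPM with it, and at 944 and 247 against 76.3 to 138 CPM without. In whole tissue, fewer cells of a type and less RNA per cell cannot be told apart, and the part of these markers in the results below was not tested except where a value is given.

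Prkag1, which encodes the transgenic subunit (ENSMUSG00000067713, chr15:98812797-98831521, minus strand), was at 410 ± 90.5 CPM over the WT-Tg libraries and 386 ± 88.3 CPM over the D316A-Tg libraries (SD, n = 6 per group). The log2 fold change (log2FC) was -0.09 (SE 0.18, adjusted p = 0.748). Its exons are overlapped over 43.7% of their length by another gene, and both groups carry a transgene, so its level does not check the labels. Of the 7 AMPK subunit genes, 0 rose and 0 fell without the term (median log2 fold change -0.09), and 1 rose and 2 fell with it (14.3% and 28.6%, median -0.18). Of all genes tested, 13.7% rose and 15.2% fell with the term. Prkaa2, the α2 catalytic subunit that is also abundant in muscle, ran from 8.03 to 29.9 CPM in WT-Tg (median 9.72) and from 14.3 to 36.7 CPM in D316A-Tg (median 24.8). It rose with the term, at log2FC 0.64 (adjusted p = 0.028), and was at log2FC 0.91 (SE 0.35, adjusted p = 0.114) without it. Prkag3, the γ3 subunit known from skeletal muscle, fell with the term, at log2FC -3.56 (adjusted p = 0.00176). Its highest level, 14.8 CPM, was in WT-Tg 6, the library with the most muscle marker RNA (12182 CPM). Prkab1, a β subunit, fell with the term, at log2FC -0.21 (adjusted p = 0.0434). The α1 gene Prkaa1 did not pass in either fit.

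A gene was called when its adjusted p from edgeR was under 0.05 over the 15249 genes tested. Without a term 1303 genes passed (8.54%), of which 808 were higher (5.3%) and 495 lower (3.25%) in D316A-Tg. A term for the 6 libraries with lymph node signal raised this to 4412 (28.9%), with 2093 higher (13.7%) and 2319 lower (15.2%), and 1301 of the 1303 were among them in the same direction. In 323 genes (2.12%) every D316A-Tg library was above every WT-Tg library, and in 293 (1.92%) below. The median log2 fold change over all genes was -0.07 without the term and -0.04 with it. The count without the term leaned on single libraries: it was 140 without D316A-Tg 7, 141 without D316A-Tg 12, 205 without D316A-Tg 9, 244 without D316A-Tg 10 and 3360 without D316A-Tg 8. Without WT-Tg 1, 2, 3 or 4 it was 420, 383, 215 or 349. With the term it stayed between 2647 and 4742, and fell by over 1.5 times only without WT-Tg 5 (2647) or D316A-Tg 11 (2862). Within the 6 libraries that lack node signal 2305 genes were called (15.3%, 7.59% higher and 7.71% lower), and within the 6 that hold it 148. Of all genes of the stress lists below, Hspe1 alone was called without the term in every fit that left out 1 library, so most lists are also given by the members that stayed called with the term in every such fit. With the term, 1039 of the 15249 genes tested stayed called higher in every such fit, and 1157 stayed called lower.

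Genes of mitochondrial protein quality control were higher in fat of D316A-Tg mice. Of 16 mitochondrial chaperones and proteases, 6 rose and 0 fell without the term (median log2 fold change 0.56), and 10 rose and 0 fell with it (median 0.36). The share of all tested genes that rose was 5.3% and 13.7% in the same fits. Of the 10, 6 were called with the term whichever library was left out, and 10 of 16 rose within the 6 libraries without node signal, where 7.59% of all genes did. In this list 7 members were higher in every D316A-Tg than in every WT-Tg library within both strata, as were 8.91% of all genes (10.1% were lower in that way). In both strata of libraries, with and without node signal, every D316A-Tg library had a higher mean log2 CPM of this list than every WT-Tg library, 6.44 and 6.64 against 6.11 to 6.42 with node signal, and 6.97 to 7.08 against 6.58 and 6.64 without. Summed mature adipocyte markers overlapped between genotypes with node signal, at 19748 to 28414 CPM in WT-Tg and 25099 and 32491 CPM in D316A-Tg. They did not overlap without it, at 50932 and 53369 against 60431 to 78034 CPM. As a list they had a median log2 fold change of 0.67 without the term and 0.27 with it, with 0 of 10 called in either fit; the part of adipocyte content in the mitochondrial genes was not tested.

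Hspe1, the small lid of the mitochondrial chaperonin (ENSMUSG00000073676, chr1:55088132-55091307, plus strand), ran from 47.8 to 63.7 CPM in WT-Tg (median 56.3) and from 75.9 to 108 CPM in D316A-Tg (median 91.5). Every D316A-Tg library was above every WT-Tg library. The log2 fold change was 0.71 (SE 0.11, adjusted p = 0.00852) without the term and 0.64 (SE 0.09, adjusted p = 0.000916) with it, and the gene was called without any 1 of the 12 libraries. Hspd1, which forms the chaperonin barrel and was picked after its values were seen, is divergently transcribed from the same stretch of chromosome 1. It ran from 157 to 271 CPM in WT-Tg (median 197) and from 234 to 408 CPM in D316A-Tg (median 378), with log2 fold changes of 0.74 (adjusted p = 0.0368) without the term and 0.55 (adjusted p = 0.00143) with it. Dnaja3, the co-chaperone that loads the mitochondrial heat shock protein of the matrix (ENSMUSG00000004069, chr16:4639989-4707695, plus strand), ran from 57.7 to 101 CPM in WT-Tg (median 77.4) and from 86.4 to 171 CPM in D316A-Tg (median 145). Its groups overlapped, but within each stratum D316A-Tg was higher throughout, and its log2 fold changes were 0.76 (adjusted p = 0.0357) without the term and 0.55 (adjusted p = 0.0023) with it. Yme1l1, the inner membrane protease that faces the intermembrane space, went from 69.8 to 88.4 CPM in WT-Tg (median 81.3) and from 95.3 to 128 CPM in D316A-Tg (median 109) with no overlap, at log2FC 0.44 (adjusted p = 0.0247) without the term and 0.47 (adjusted p = 0.00331) with it. Afg3l2, a subunit of the protease that faces the matrix, had log2 fold changes of 0.69 (adjusted p = 0.0234) without the term and 0.55 (adjusted p = 0.00318) with it. Hspa9, the matrix heat shock protein that pulls in precursors and also picked after its values were seen, was at log2FC 0.83 (adjusted p = 0.0429) without the term and 0.61 (adjusted p = 0.0028) with it. The matrix proteases Lonp1 and Clpp rose with the term, at log2FC 0.34 (adjusted p = 0.0404) and 0.39 (adjusted p = 0.0143), as did the chaperone Trap1 at log2FC 0.38 (adjusted p = 0.0325) and the presequence protease Pitrm1 at log2FC 0.26 (adjusted p = 0.017).

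**Figure D1:**
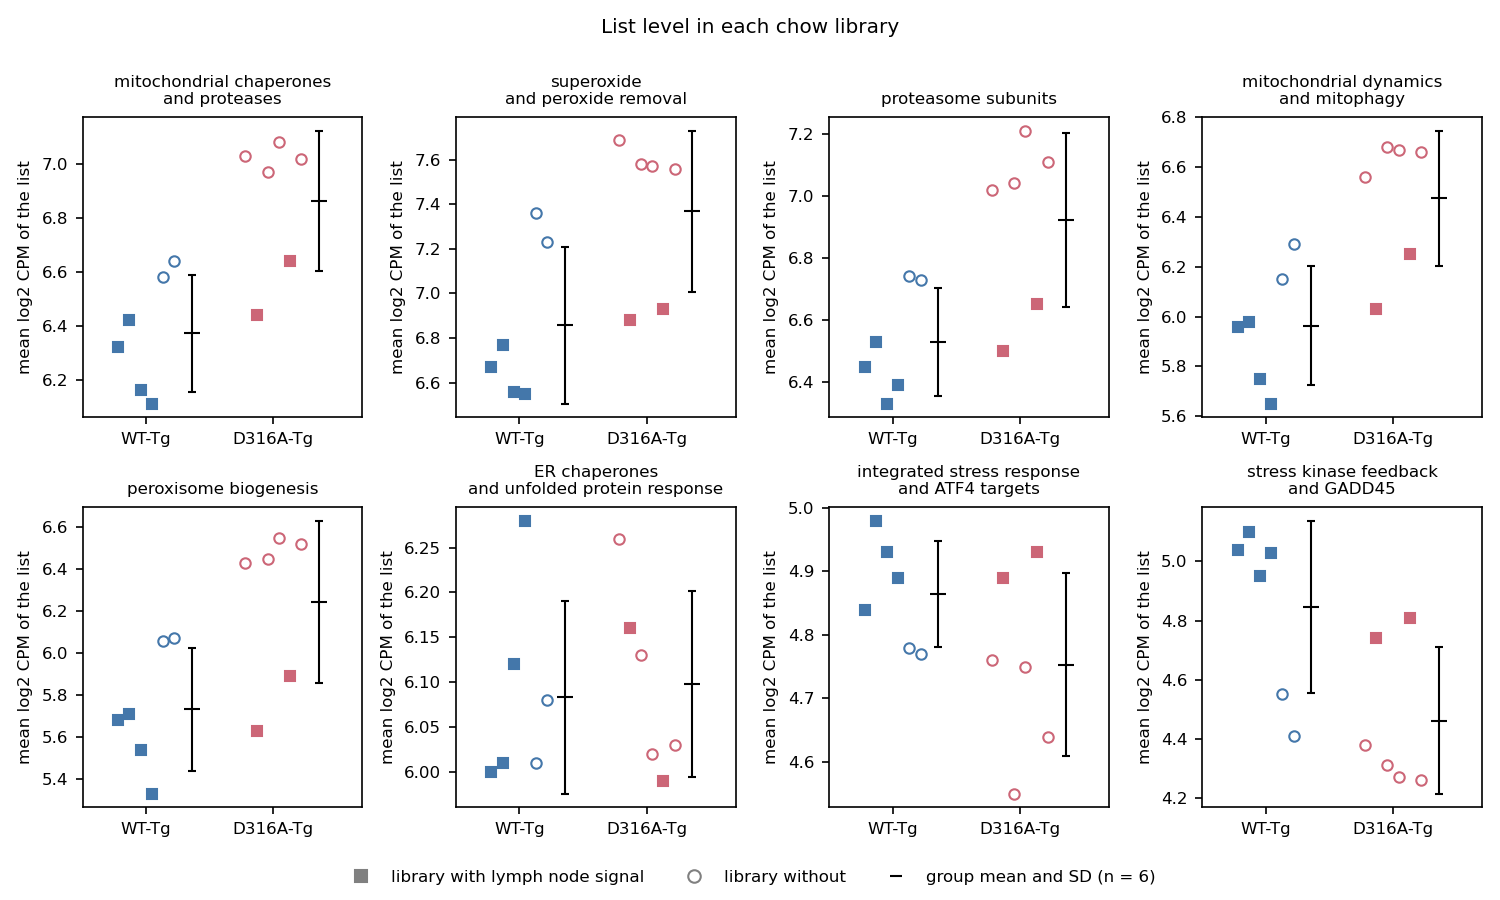
Mean log2 CPM of 8 gene lists (y axis) in each of the 12 chow libraries, by genotype (x axis). Squares are libraries with lymph node signal, open circles libraries without, and bars the group mean and SD of 6 libraries. Mitochondrial chaperones and proteases lie between 6.11 and 6.64 in WT-Tg and between 6.44 and 7.08 in D316A-Tg, and the node libraries sit low in both groups.

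The start regions of these genes were read for motifs, since Hspe1 and Hspd1 moved together and share theirs. Windows of 250 bases before to 50 after each start came from RefSeq on GRCm38.p6, and 13 of the 16 list genes matched, with 14 windows. The NRF1 motif (GCGCA and GCGC with any 1 base between), searched on both strands like the others, was in 5 of the 14 (35.7%), against 4.6% of 32851 windows of all genes. It was also in 9 of 28 windows of the respiratory chain list (32.1%) and 6 of 27 of the proteasome list (22.2%). The heat shock element (TTC, GAA and TTC, each 2 bases apart) was in 2 of the 14, against 0.603% of all windows. Because Hspe1 and Hspd1 share a start region, these 2 windows may cover the same stretch of DNA, which was not checked. A match is a description of letters and not of binding. To show where such letters lie, sequence before the start of 4 genes that rose is printed 5′ to 3′ with the match in capitals: 200 bases for Dnaja3 and Opa1, 145 for Prdx1 and, since Hspd1 exons reach into its window, 30 for Hspe1. The GENCODE model of Dnaja3 begins upstream of the RefSeq start used. The match is the heat shock element for Hspe1 (a match on each strand, overlapping), the NRF1 motif for Dnaja3 (on the other strand) and Opa1 (on both), and the antioxidant response element TGACNNNGC, on the other strand, for Prdx1. That element was in 2 of 27 windows of the list of superoxide and peroxide enzymes (7.41%), which holds Prdx1, and in 12.4% of all windows.
Hspe1 (GRCm38.p6, chr1:55088053-55088082, plus strand): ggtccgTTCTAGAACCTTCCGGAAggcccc
Dnaja3 (GRCm38.p6, chr16:4683870-4684069, plus strand): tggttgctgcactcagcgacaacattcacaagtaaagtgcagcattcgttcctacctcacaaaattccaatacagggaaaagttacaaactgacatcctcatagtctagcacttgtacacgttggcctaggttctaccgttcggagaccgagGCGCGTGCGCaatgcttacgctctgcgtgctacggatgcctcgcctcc
Opa1 (GRCm38.p6, chr16:29579134-29579333, plus strand): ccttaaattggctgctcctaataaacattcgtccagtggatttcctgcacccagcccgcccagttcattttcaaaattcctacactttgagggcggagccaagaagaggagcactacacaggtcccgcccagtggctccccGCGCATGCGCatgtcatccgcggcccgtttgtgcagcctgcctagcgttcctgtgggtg
Prdx1 (GRCm38.p6, chr4:116685399-116685543, plus strand): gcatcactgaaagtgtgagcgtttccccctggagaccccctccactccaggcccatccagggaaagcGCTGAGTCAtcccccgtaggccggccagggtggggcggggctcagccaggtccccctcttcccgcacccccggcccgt

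Enzymes that remove superoxide and peroxides were also higher in D316A-Tg. Of 23 tested, 4 rose and 0 fell without the term (median log2 fold change 0.58), and 14 rose and 1 fell with it (60.9% and 4.35%, median 0.38). Among all genes tested 5.3% rose and 3.25% fell without the term, and 13.7% rose and 15.2% fell with it. Of the 14, 9 stayed called with the term in every fit that left out 1 library. So did 1039 rises among the 15249 genes tested. Within both strata the list's mean log2 CPM was higher in every D316A-Tg library than in every WT-Tg library. Gpx8, a glutathione peroxidase relative of the ER membrane (ENSMUSG00000021760, chr13:113042753-113046410, minus strand), ran from 57.7 to 127 CPM in WT-Tg (median 70.1) and from 121 to 346 CPM in D316A-Tg (median 288). Only D316A-Tg 8, a node library, fell inside the WT-Tg range, and the log2 fold change was 1.63 (SE 0.30, adjusted p = 0.0164) without the term and 1.23 (SE 0.12, adjusted p = 0.000144) with it. Prdx3, the peroxiredoxin of the mitochondrial matrix (ENSMUSG00000024997, chr19:60864051-60874556, minus strand), ran from 86.8 to 163 CPM in WT-Tg (median 121) and from 157 to 303 CPM in D316A-Tg (median 270). Only D316A-Tg 8, at 157 CPM, lay within the WT-Tg range, and its log2 fold change was 0.94 (SE 0.21, adjusted p = 0.0245) without the term and 0.71 (SE 0.10, adjusted p = 0.000748) with it. Sod2, the manganese superoxide dismutase of the same compartment, had log2 fold changes of 0.92 (adjusted p = 0.0459) without the term and 0.68 (adjusted p = 0.00503) with it. Prdx1, a cytosolic peroxiredoxin whose start region is shown above (ENSMUSG00000028691, chr4:116685544-116700822, plus strand), was at log2FC 0.73 (adjusted p = 0.0482) without the term and 0.50 (adjusted p = 0.00168) with it. With the term further members rose: cytosolic Sod1 at log2FC 0.50 (adjusted p = 0.0048), peroxisomal catalase Cat at log2FC 0.48 (adjusted p = 0.0102), Gpx4, which reduces lipid peroxides, at log2FC 0.50 (adjusted p = 0.00531), Prdx5 at log2FC 0.49 (adjusted p = 0.00344) and mitochondrial thioredoxin Txn2 at log2FC 0.39 (adjusted p = 0.00659). The exception was the secreted superoxide dismutase Sod3, which fell with the term at log2FC -0.47 (adjusted p = 0.00474) and was at log2FC -0.10 (SE 0.34, adjusted p = 0.844) without it. Its WT-Tg level was 128 to 188 CPM with node signal and 350 to 399 CPM without.

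Of 22 targets of NRF2, the transcription factor freed by electrophiles, 1 rose and 0 fell without the term (median log2 fold change 0.32), and 6 rose and 1 fell with it (27.3% and 4.55%, median 0.12). Without the term 5.3% of all genes rose and 3.25% fell, and with it 13.7% rose and 15.2% fell. Of the 6, 2 stayed called with the term in every fit that left out 1 library, where 1039 of the 15249 genes tested stayed called higher. Gsta4, a glutathione transferase for lipid aldehydes, ran from 17.9 to 44.7 CPM in WT-Tg (median 29.6) and from 32.1 to 149 CPM in D316A-Tg (median 67.3). Its log2FC was 1.45 (adjusted p = 0.0369) without the term, where it was the list's single call, and 1.08 (adjusted p = 0.0111) with it, and it did not pass in a fit with an offset for gene length and GC content (described below) alone (adjusted p = 0.0534). Its 2 highest libraries, D316A-Tg 10 and 12 (149 and 137 CPM), stood well above the next, at 69.3 CPM. Mgst1, a membrane glutathione transferase, rose with the term at log2FC 0.64 (adjusted p = 0.00287). The pentose phosphate enzymes G6pdx and Pgd, which make NADPH, did so at log2FC 0.48 (adjusted p = 0.00294) and 0.57 (adjusted p = 0.0209), and Gclm, the modifier of glutamate-cysteine ligase, at log2FC 0.43 (adjusted p = 0.0145). Gsta3, another glutathione transferase, rose at log2FC 0.49 (adjusted p = 0.0307), and the epoxide hydrolase Ephx1 fell at log2FC -0.38 (adjusted p = 0.0315). The antioxidant response element was in 8 of 23 windows of this list (34.8%) and in 12.4% of all windows. Across the other lists its share ran from 0% (AMPK subunits) to 31.8% (7 of 22 windows of the stress kinase feedback list). It was in 11 of 44 windows of the cytosolic ribosomal protein list (25%), so a share above that of all windows was not particular to NRF2 targets.

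Genes that shape, divide and recycle mitochondria were called in 1 direction only. Of 22 tested, 6 rose and 0 fell without the term (median log2 fold change 0.47), and 13 rose and 0 fell with it (59.1% and 0%, median 0.30). All genes tested had shares of 5.3% higher and 3.25% lower without the term, and 13.7% and 15.2% with it. Of the 13, 7 stayed called with the term in every fit that left out 1 library, as did 1039 rises among the 15249 genes tested. Chchd10, a small protein of the intermembrane space (ENSMUSG00000049422, chr10:75933130-75937747, plus strand), ran from 57.2 to 143 CPM in WT-Tg (median 116) and from 174 to 374 CPM in D316A-Tg (median 299). No D316A-Tg library overlapped WT-Tg, and the log2 fold change was 1.44 (SE 0.27, adjusted p = 0.0164) without the term and 1.19 (SE 0.20, adjusted p = 0.00202) with it. Chchd3, a subunit of the cristae-organising complex, had log2 fold changes of 0.99 (adjusted p = 0.0203) without the term and 0.78 (adjusted p = 0.000373) with it. Opa1, the GTPase that fuses inner membranes (ENSMUSG00000038084, chr16:29579334-29654884, plus strand), ran from 72.4 to 108 CPM in WT-Tg (median 88.8) and from 105 to 173 CPM in D316A-Tg (median 150), at log2FC 0.69 (adjusted p = 0.0213) without the term and 0.55 (adjusted p = 0.00133) with it. Bnip3l, a receptor that marks mitochondria for autophagy and that hypoxia also induces, ran from 59.7 to 76 CPM in WT-Tg (median 72.8) and from 87.6 to 130 CPM in D316A-Tg (median 108). The groups did not overlap, and its log2 fold changes were 0.61 (adjusted p = 0.0183) without the term and 0.51 (adjusted p = 0.00239) with it. The 37 nuclear-encoded subunits of the respiratory chain, fixed as a yardstick, were called higher in 33 without and 37 with the term (median 0.92 and 0.69). The medians of the chaperone, peroxide and dynamics lists were each lower than that. The share of counts on the mitochondrial genome lay between 3.77 and 7.37% in the WT-Tg libraries and between 7.68 and 11.5% in the D316A-Tg libraries, with no overlap (exact permutation test of 6 against 6, two-sided p = 0.00216, the smallest this design can give).

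Peroxisome and proteasome genes were called higher and not lower in the fits given here. Their mean log2 CPM did not separate the genotypes among libraries with node signal. There D316A-Tg 8 was below WT-Tg 2, at 5.63 against 5.71 for the peroxisome list and 6.50 against 6.53 for the proteasome list. Among libraries without node signal every D316A-Tg library was above every WT-Tg library for both lists. Of 21 peroxisome biogenesis genes, 3 rose and 0 fell without the term (median log2 fold change 0.56), and 11 rose and 0 fell with it (52.4% and 0%, median 0.28). For this list and the next, the share of all genes that rose was 5.3% without the term and 13.7% with it. Abcd3, the transporter that brings long-chain acyl groups into peroxisomes (ENSMUSG00000028127, chr3:121758774-121815302, minus strand), ran from 59.5 to 129 CPM in WT-Tg (median 99.5) and from 126 to 278 CPM in D316A-Tg (median 235). Only D316A-Tg 8, at 126 CPM, lay under the highest WT-Tg library, and the log2 fold change was 1.20 (SE 0.22, adjusted p = 0.0164) without the term and 0.99 (SE 0.15, adjusted p = 0.00116) with it. Pex13, part of the docking site for imported enzymes, was at log2FC 0.93 (adjusted p = 0.0362) without the term and 0.69 (adjusted p = 0.00147) with it. Pex3, which inserts membrane proteins, was at log2FC 0.84 (adjusted p = 0.0345) without the term and 0.62 (adjusted p = 0.00297) with it. In both fits 31 of 31 proteasome subunit genes had a positive log2 fold change. Of these, 7 rose and 0 fell without the term (median log2 fold change 0.41), and 20 rose and 0 fell with it (64.5% and 0%, median 0.26). Psma6, a subunit of the outer ring of the core (ENSMUSG00000021024, chr12:55384222-55418454, plus strand), ran from 107 to 148 CPM in WT-Tg (median 125) and from 142 to 232 CPM in D316A-Tg (median 220), at log2FC 0.68 (adjusted p = 0.0235) without the term and 0.52 (adjusted p = 0.00122) with it. Psma1 of the same ring was at log2FC 0.60 (adjusted p = 0.0349) without the term and 0.46 (adjusted p = 0.00497) with it. The base ATPase Psmc6 was at log2FC 0.53 (adjusted p = 0.0249) without the term and 0.41 (adjusted p = 0.00128) with it, and the lid subunit Psmd12 was at log2FC 0.52 (adjusted p = 0.0362) without the term and 0.39 (adjusted p = 0.00522) with it. With the term, 7 of the 11 peroxisome and 9 of the 20 proteasome calls held in every fit that left out 1 library. So did 1039 rises among all 15249 genes tested. No gene of either list fell in the fits without the term, with it, with the length and GC offset, or within the libraries without node signal. Of all genes, 3.25%, 15.2%, 0.629% and 7.71% fell in those fits, so the offset fit in particular had few falls to give. With that offset alone 1 peroxisome and 3 proteasome genes rose, where 2.93% of all genes did.

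**Figure D2:**
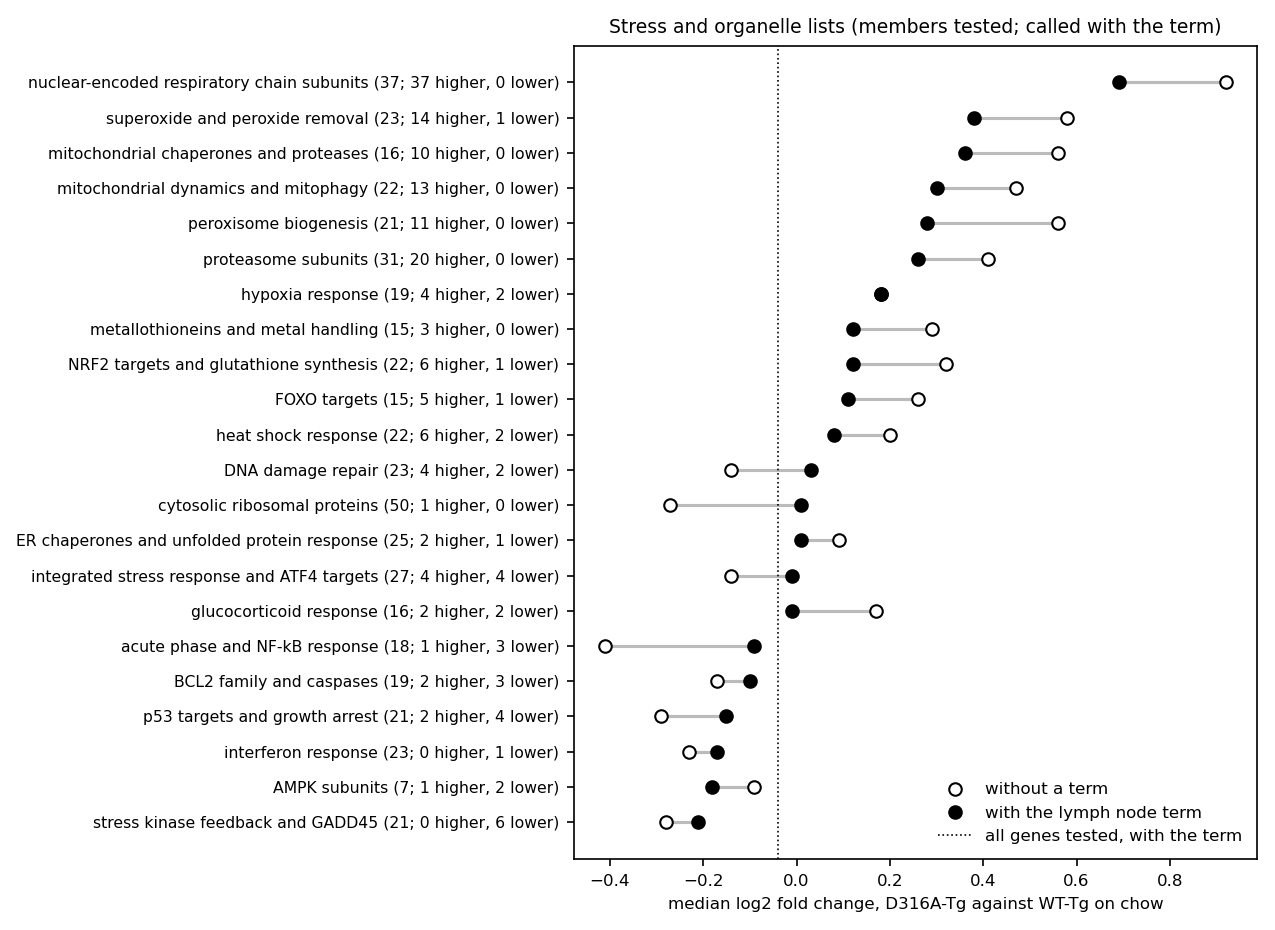
Median log2 fold change of 22 gene lists (x axis) without a term (open circles) and with the lymph node term (filled), with members tested and called with the term beside each name. The dotted line is the median of all genes with the term, -0.04; mitochondrial, peroxide, peroxisome and proteasome lists lie at 0.26 or above with the term, and the ER and ATF4 lists at log2FC 0.01 and -0.01.

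Of 22 genes of the heat shock response, 3 rose and 0 fell without the term (median log2 fold change 0.20), and 6 rose and 2 fell with it (median 0.08). The 6 are 27.3%, against 13.7% of all genes. Within the libraries without node signal 2 rose and 2 fell, where 7.59% and 7.71% of all genes did, and with the length and GC offset alone 1 rose and 0 fell. Of these calls with the term, 3 rises and 1 fall held in every fit that left out 1 library. Hspa4l, an exchange factor for cytosolic chaperones, ran from 16.2 to 23.8 CPM in WT-Tg (median 19.2) and from 25.1 to 38.4 CPM in D316A-Tg (median 31.2) with no overlap, at log2FC 0.71 (adjusted p = 0.0177) without the term and 0.61 (adjusted p = 0.00216) with it. Hsp90aa1, an inducible chaperone of the cytosol, ran from 62.7 to 81.9 CPM in WT-Tg (median 74) and from 85.8 to 120 CPM in D316A-Tg (median 97.9), also with no overlap, at log2FC 0.47 (adjusted p = 0.0234) without the term and 0.40 (adjusted p = 0.00365) with it. Its co-chaperone Fkbp4 was at log2FC 0.44 (adjusted p = 0.0396) without the term and 0.34 (adjusted p = 0.00854) with it. Hspa4 rose with the term at log2FC 0.26 (adjusted p = 0.0151). Hsf1, the transcription factor of the response, went the other way: it was at log2FC -0.65 (SE 0.19, adjusted p = 0.0551) without the term and fell with it, at log2FC -0.45 (adjusted p = 0.00581), as did the small heat shock protein Cryab at log2FC -0.44 (adjusted p = 0.0293).

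Of 25 ER chaperones and genes of the unfolded protein response, 2 rose and 1 fell without the term (median log2 fold change 0.09), and 2 rose and 1 fell with it (8% and 4%, median 0.01). Both shares with the term were under the 13.7% and 15.2% of all genes. Dnajb9, a co-chaperone of the ER lumen (ENSMUSG00000014905, chr12:44205559-44210326, minus strand), ran from 24.5 to 35.5 CPM in WT-Tg (median 26.3) and from 36.9 to 60.1 CPM in D316A-Tg (median 44.1). The groups did not overlap, WT-Tg 6, at 35.5 CPM, was the highest of its group, and the log2 fold change was 0.70 (SE 0.13, adjusted p = 0.0164) without the term and 0.62 (SE 0.11, adjusted p = 0.00235) with it. Canx, the lectin chaperone calnexin, ran from 173 to 212 CPM in WT-Tg (median 190) and from 237 to 292 CPM in D316A-Tg (median 265) with no overlap, at log2FC 0.45 (adjusted p = 0.0235) without the term and 0.39 (adjusted p = 0.00297) with it. Syvn1, the ubiquitin ligase that clears misfolded ER proteins (ENSMUSG00000024807, chr19:6046576-6053712, plus strand), ran from 72.1 to 108 CPM in WT-Tg (median 94) and from 53.4 to 72.8 CPM in D316A-Tg (median 57.8). D316A-Tg 8 alone reached the lowest WT-Tg library. Syvn1 fell, at log2FC -0.60 (SE 0.12, adjusted p = 0.0193) without the term and -0.49 (SE 0.08, adjusted p = 0.00163) with it, but did not pass with the length and GC offset (adjusted p = 0.112, and 0.0668 with the term as well). Dnajc3 was at log2FC 0.16 (adjusted p = 0.149) without the term and 0.14 (adjusted p = 0.0884) with it. The list held called genes in both directions, and its median was close to that of all genes.

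Of 27 targets of ATF4, 1 rose and 0 fell without the term (median log2 fold change -0.14), and 4 rose and 4 fell with it (median -0.01). The last shares (14.8% each way) were near the 13.7% and 15.2% of all genes, so the counts set the list apart in neither direction. With the term 4 rises and 1 fall of the 27 held in every fit that left out 1 library. Of the 15249 genes tested, 1039 rises and 1157 falls did. Psph, the last enzyme of serine synthesis, ran from 17.8 to 32 CPM in WT-Tg (median 24) and from 32 to 54.4 CPM in D316A-Tg (median 43.7), at log2FC 0.77 (adjusted p = 0.025) without the term and 0.60 (adjusted p = 0.00175) with it. Asns, asparagine synthetase, ran from 36.1 to 88 CPM in WT-Tg (median 49.6) and from 48.9 to 168 CPM in D316A-Tg (median 120). Asns rose with the term, at log2FC 0.66 (adjusted p = 0.00799), and was at log2FC 1.04 (SE 0.32, adjusted p = 0.0623) without it. Nupr1, a small stress-induced nuclear protein, and Vldlr, a lipoprotein receptor, rose with the term at log2FC 0.60 (adjusted p = 0.00703) and 0.53 (adjusted p = 0.00622). Amino acid transporters of the same list fell with it: Slc7a5 at log2FC -0.86 (adjusted p = 0.0362), its partner Slc3a2 at log2FC -0.40 (adjusted p = 0.0148) and the cationic transporter Slc7a1 at log2FC -0.61 (adjusted p = 0.0127), along with the mitochondrial serine enzyme Shmt2 at log2FC -0.33 (adjusted p = 0.0449). Slc7a5 was at 10.4 to 19.9 CPM in WT-Tg libraries with node signal and at 3.08 to 3.73 CPM in those without. Pck2, a mitochondrial enzyme of gluconeogenesis, did not pass, at log2FC -0.40 (adjusted p = 0.07) without the term and -0.32 (adjusted p = 0.0563) with it.

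**Figure D3:**
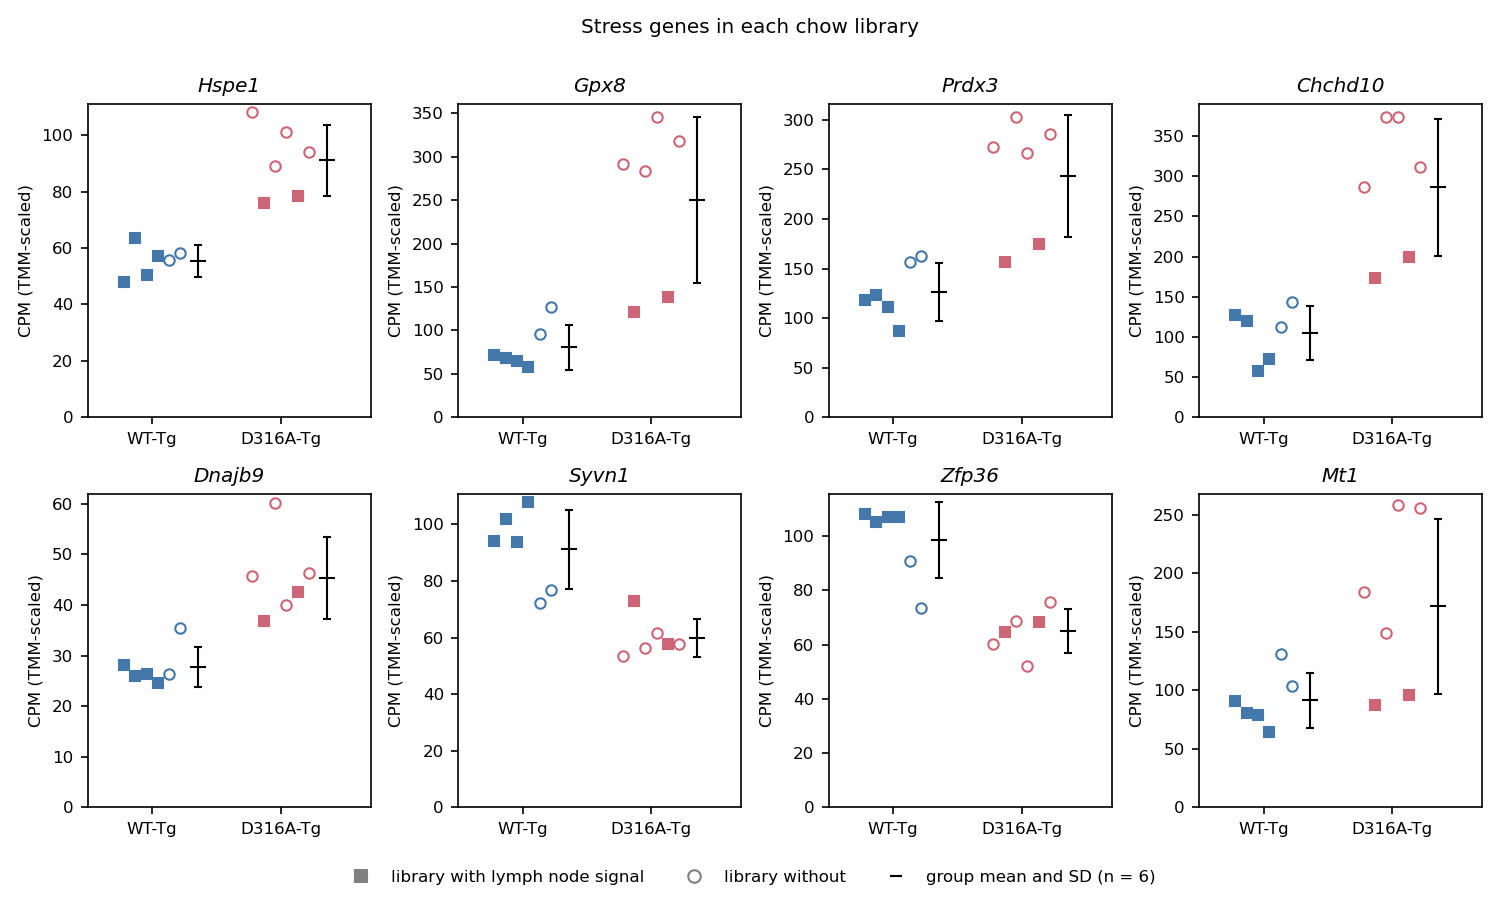
TMM-scaled CPM (y axes, from 0) of 8 stress genes in each chow library, by genotype; squares are libraries with lymph node signal, open circles libraries without, bars the mean and SD of 6. Hspe1, Chchd10 and Dnajb9 do not overlap between genotypes, Zfp36 and Syvn1 are lower in D316A-Tg, and Mt1 ranges from 87.3 to 258 CPM in D316A-Tg.

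Of 15 metallothionein and metal-handling genes, 1 rose and 0 fell without the term (median log2 fold change 0.29), and 3 rose and 0 fell with it (20% and 0%, median 0.12). Of all genes, 13.7% rose and 15.2% fell with the term. Iscu, the scaffold on which iron-sulfur clusters are built, was at log2FC 0.54 (adjusted p = 0.0491) without the term and 0.38 (adjusted p = 0.00734) with it. Nfs1, which supplies its sulfur, rose with the term at log2FC 0.26 (adjusted p = 0.0306). Metallothionein Mt1 ran from 64 to 131 CPM in WT-Tg (median 86) and from 87.3 to 258 CPM in D316A-Tg (median 167). It rose with the term, at log2FC 0.54 (adjusted p = 0.0396), where D316A-Tg 10 and 12 were highest. Mt2, 73.5% of whose exons another gene overlaps, did not pass, at log2FC 0.96 (adjusted p = 0.0835) without the term and 0.59 (adjusted p = 0.116) with it. Of 19 genes of the hypoxia response, 2 rose and 0 fell without the term (median log2 fold change 0.18), and 4 rose and 2 fell with it (21.1% and 10.5%, median 0.18). Egln3, an oxygen-sensing prolyl hydroxylase, ran from 4.97 to 7.78 CPM in WT-Tg (median 6.17) and from 7.96 to 13.7 CPM in D316A-Tg (median 9.98) with no overlap, at log2FC 0.69 (adjusted p = 0.0298) without the term and 0.59 (adjusted p = 0.00822) with it. Pdk1, a kinase that holds back pyruvate oxidation, rose with the term at log2FC 0.66 (adjusted p = 0.0216), as did the mitophagy receptor Bnip3 at log2FC 0.42 (adjusted p = 0.0355). The glucose transporter Slc2a1 and Ndrg1, both known as hypoxia targets, fell with it, at log2FC -0.59 (adjusted p = 0.00315) and -0.64 (adjusted p = 0.0038).

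Among FOXO targets, which fasting and low insulin induce, 2 rose and 0 fell without the term (median log2 fold change 0.26), and 5 rose and 1 fell with it (33.3% and 6.67%, median 0.11), of 15 tested. Of all genes, 13.7% rose and 15.2% fell with the term. Pdk4, the fasting-induced relative of Pdk1, ran from 86.9 to 372 CPM in WT-Tg (median 210) and from 339 to 886 CPM in D316A-Tg (median 611), at log2FC 1.45 (adjusted p = 0.0367) without the term and 1.39 (adjusted p = 0.0103) with it. Insr, the insulin receptor, was at log2FC 0.72 (adjusted p = 0.0487) without the term and 0.52 (adjusted p = 0.00403) with it. Klf15, the ubiquitin-like autophagy protein Gabarapl1 and the stress protein sestrin Sesn3 rose with the term, at log2FC 0.46 (adjusted p = 0.00659), 0.31 (adjusted p = 0.0272) and 0.77 (adjusted p = 0.00164). With the length and GC offset alone Pdk4 and Insr did not pass (adjusted p = 0.0533 and 0.085). Irs2, the insulin receptor substrate, fell with the lymph node term at log2FC -0.65 (adjusted p = 0.0213). Of 16 genes of the glucocorticoid response, 1 rose and 0 fell without the term (median log2 fold change 0.17), and 2 rose and 2 fell with it (12.5% each way, median -0.01). These shares with the term were under those of all genes. Hsd11b1, which regenerates active glucocorticoid inside adipocytes (ENSMUSG00000016194, chr1:193221634-193264075, minus strand), ran from 149 to 385 CPM in WT-Tg (median 253) and from 266 to 998 CPM in D316A-Tg (median 721), at log2FC 1.31 (SE 0.36, adjusted p = 0.0471) without the term and 0.85 (SE 0.19, adjusted p = 0.00644) with it. With that offset alone it did not pass (adjusted p = 0.072). The secreted glutathione peroxidase Gpx3 rose with the term at log2FC 0.52 (adjusted p = 0.0252). The receptor target Fkbp5 did not pass, at log2FC 0.83 (adjusted p = 0.0757) without the term and 0.84 (adjusted p = 0.0519) with it. The list members Dusp1 and Arrdc2 fell with the term, at log2FC -0.73 (adjusted p = 0.0227) and -0.39 (adjusted p = 0.0221).

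Feedback genes of the stress kinases were called lower and not higher without and with the term, but not with the length and GC offset alone, where 0 fell and 1 rose. Of 21 tested, 0 rose and 2 fell without the term (median log2 fold change -0.28), and 0 rose and 6 fell with it (median -0.21). With the term 4 of the 6 falls held in every fit that left out 1 library. The share of all genes called lower was 3.25% without the term and 15.2% with it. Zfp36, which destabilises cytokine messages (ENSMUSG00000044786, chr7:28376784-28380253, minus strand), ran from 73.3 to 108 CPM in WT-Tg (median 106) and from 52.1 to 75.8 CPM in D316A-Tg (median 66.5). Of the D316A-Tg libraries only number 12 exceeded the lowest WT-Tg library, and the log2 fold change was -0.60 (SE 0.12, adjusted p = 0.0207) without the term and -0.52 (SE 0.11, adjusted p = 0.0042) with it. Zfp36 and Jund, the 2 falls without the term, did not pass with the offset alone (adjusted p = 0.0639 and 0.067). Jund, a transcription factor of the Jun family, was at log2FC -0.59 (adjusted p = 0.0224) without the term and -0.57 (adjusted p = 0.00575) with it, with 52.6% of its exons overlapped by another gene. The phosphatase Dusp10 and the kinase Map2k6 of the stress kinase cascade fell with the term, at log2FC -0.80 (adjusted p = 0.013) and -0.46 (adjusted p = 0.0499). The phosphatase Dusp8 and the immediate early gene Ier5 did so at log2FC -1.26 (adjusted p = 0.00724) and -0.76 (adjusted p = 0.00629). In the 6 libraries without node signal the median of this list was 0.04 rather than -0.28. With the length and GC offset and the term, 5 fell and 1 rose.

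Lists of DNA damage, cell death and inflammation were called with the term at shares near or under those of all genes, 13.7% higher and 15.2% lower. Of 21 p53 targets and growth arrest genes, 0 rose and 0 fell without the term (median log2 fold change -0.29), and 2 rose and 4 fell with it (9.52% and 19%, median -0.15). Trp53 itself fell with the term, at log2FC -0.61 (adjusted p = 0.000567), together with Plk3 and Btg2 at log2FC -1.04 (adjusted p = 0.00659) and -0.60 (adjusted p = 0.0209) and the death effector Bax at log2FC -0.24 (adjusted p = 0.041). The p53-inducible Trp53inp1 and cyclin Ccng1 rose, at log2FC 0.95 (adjusted p = 0.000374) and 0.35 (adjusted p = 0.00689). Trp53 was at 71.4 to 81.7 CPM in WT-Tg libraries with node signal and at 26.4 to 27.8 CPM in those without. Of 23 DNA repair genes, 1 rose and 0 fell without the term (median log2 fold change -0.14), and 4 rose and 2 fell with it (17.4% and 8.7%, median 0.03). Polb, the polymerase of base excision repair (ENSMUSG00000031536, chr8:22628126-22653435, minus strand), ran from 28.9 to 35.3 CPM in WT-Tg (median 34.8) and from 40.4 to 51.9 CPM in D316A-Tg (median 48.4) with no overlap, at log2FC 0.50 (SE 0.09, adjusted p = 0.0177) without the term and 0.42 (SE 0.07, adjusted p = 0.00212) with it. The damage kinase Atm rose with the term, at log2FC 0.85 (adjusted p = 0.00103), as did Nbn at log2FC 0.28 (adjusted p = 0.018) and the replication stress kinase Atr at log2FC 0.26 (adjusted p = 0.0494). Rad50, of the same complex as Nbn, and the nuclease subunit Ercc1 fell, at log2FC -0.31 (adjusted p = 0.0331) and -0.50 (adjusted p = 0.0055). Of 19 BCL2 family and caspase genes, 1 rose and 0 fell without the term (median log2 fold change -0.17), and 2 rose and 3 fell with it (10.5% and 15.8%, median -0.10). Cycs, cytochrome c of the respiratory chain and trigger of the apoptosome, ran from 4.74 to 12.4 CPM in WT-Tg (median 9.81) and from 16.7 to 33.3 CPM in D316A-Tg (median 21) with no overlap, at log2FC 1.28 (adjusted p = 0.0193) without the term and 1.17 (adjusted p = 0.0033) with it. The gene has many processed copies, so its counts are uncertain. Diablo rose and Bid fell with the term, at log2FC 0.25 (adjusted p = 0.0295) and -0.36 (adjusted p = 0.0261). The survival factor Mcl1 fell with it at log2FC -0.26 (adjusted p = 0.0187).

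Of 23 interferon response genes, 0 rose and 0 fell without the term (median log2 fold change -0.23), and 0 rose and 1 fell with it (median -0.17). That member was Stat2, at log2FC -0.53 (adjusted p = 0.0146). Oas1a was at log2FC -0.70 (adjusted p = 0.194) without the term and -0.57 (adjusted p = 0.202) with it. Of 18 acute phase and NF-kB genes, 0 rose and 0 fell without the term (median log2 fold change -0.41), and 1 rose and 3 fell with it (5.56% and 16.7%, median -0.09). Orm1, an acute phase carrier protein that adipocytes secrete, rose with the term at log2FC 0.50 (adjusted p = 0.0056), while Socs3, Icam1 and the NF-kB subunit Nfkb2 fell, at log2FC -0.67 (adjusted p = 0.018), -0.55 (adjusted p = 0.0177) and -0.45 (adjusted p = 0.0126). Icam1 was at 69.5 to 126 CPM in WT-Tg libraries with node signal and 13.6 to 18.4 CPM in those without. Lcn2, lipocalin, did not pass, at log2FC 1.91 (adjusted p = 0.167) without the term and 1.94 (adjusted p = 0.102) with it. Macrophage markers summed to 429 to 2218 CPM in WT-Tg and 245 to 1531 CPM in D316A-Tg, with 0 of 8 called in either fit. Of 50 cytosolic ribosomal protein genes, whose reads are shared with many processed copies, 0 rose and 0 fell without the term (median log2 fold change -0.27), and 1 rose and 0 fell with it (median 0.01). The riser was Rpl15, at log2FC 0.27 (adjusted p = 0.022).

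Across all genes, 121 were called without the term, with it, and in every fit that left out 1 of the 12 libraries, 69 higher and 52 lower. The 12 largest rises spanned Golgi traffic, signalling and metabolism. Rab6b, a small GTPase of Golgi traffic best known from brain (ENSMUSG00000032549, chr9:103111787-103185276, plus strand), ran from 1.04 to 2.25 CPM in WT-Tg (median 1.46) and from 3.24 to 34 CPM in D316A-Tg (median 19). No library overlapped, D316A-Tg 9 being the lowest of its group, and the log2 fold change was 3.52 (SE 0.47, adjusted p = 0.00499) without the term and 3.72 (SE 0.42, adjusted p = 0.000372) with it. Gdap10, a long non-coding RNA (ENSMUSG00000096954, chr12:32821872-32826904, plus strand), ran from 0.257 to 1.37 CPM in WT-Tg (median 0.804) and from 5.14 to 12.3 CPM in D316A-Tg (median 8.05), at log2FC 3.43 (adjusted p = 0.0031) without the term and 3.59 (adjusted p = 0.00014) with it. Adcy10, the soluble adenylyl cyclase that responds to bicarbonate (ENSMUSG00000026567, chr1:165485183-165576774, plus strand), ran from 1.76 to 5.33 CPM in WT-Tg (median 2.78) and from 7.13 to 24.3 CPM in D316A-Tg (median 12.7). All D316A-Tg libraries were higher, and its log2 fold change was 2.17 (SE 0.34, adjusted p = 0.00981) without the term and 1.86 (SE 0.26, adjusted p = 0.000816) with it. Hipk2, a nuclear kinase of the DNA damage response (ENSMUSG00000061436, chr6:38694390-38876165, minus strand), ran from 16 to 31.8 CPM in WT-Tg (median 20) and from 46.1 to 95.6 CPM in D316A-Tg (median 70.5), again without overlap, at log2FC 1.74 (SE 0.22, adjusted p = 0.00498) without the term and 1.51 (SE 0.13, adjusted p = 9.03e-05) with it. Pank1, which starts coenzyme A synthesis (ENSMUSG00000033610, chr19:34806940-34879455, minus strand), ran from 8.27 to 24.7 CPM in WT-Tg (median 12.6) and from 35.3 to 59.7 CPM in D316A-Tg (median 40.4), at log2FC 1.52 (adjusted p = 0.0164) without the term and 1.60 (adjusted p = 0.0025) with it. The other rises were the complex I subunit Ndufs5, the zinc finger gene Zfp871, Lmbrd2, the lipid hydrolase Adtrp and the phosphatase Ptpn4, with log2 fold changes of 1.51, 2.60, 1.79, 1.62 and 1.61 without the term. Acsm3, an acyl-CoA synthetase of mitochondria, and Zbed6 were at log2FC 1.72 and 2.71, with other genes overlapping 39.8% and 91.8% of their exons.

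The 12 largest falls in this set included genes of vessels and of Notch signalling. Vwf, the clotting factor carrier stored in endothelium (ENSMUSG00000001930, chr6:125546774-125686679, plus strand), ran from 17.5 to 42.2 CPM in WT-Tg (median 27.4) and from 8.98 to 14.2 CPM in D316A-Tg (median 10.7). Notch3, the receptor of vascular smooth muscle (ENSMUSG00000038146, chr17:32120820-32166852, minus strand), ran from 34.3 to 62.1 CPM in WT-Tg (median 45.4) and from 17.1 to 29.6 CPM in D316A-Tg (median 20.4). Every D316A-Tg library was below every WT-Tg library for both, and the log2 fold changes were -1.31 (adjusted p = 0.00981) without the term and -1.34 (adjusted p = 0.00112) with it for Vwf and -1.13 (adjusted p = 0.00915) without the term and -1.15 (adjusted p = 0.00112) with it for Notch3. The Notch ligand Dll1 and the co-repressor Tle2 fell with log2 fold changes of -1.25 and -1.10 without the term. Pear1, a platelet and endothelial receptor, Lrrc32, the anchor of latent TGF-β, and the semaphorin Sema4c were at log2FC -0.95, -1.06 and -1.15. Ets2, an ETS transcription factor, was at log2FC -0.89, the exchange factor Arhgef17 at log2FC -1.14, the chloride transporter Clcn6 at log2FC -0.90, and Syt15 and Abhd1 at log2FC -1.31 and -1.39, the last with 89.6% of its exons overlapped. With the length and GC offset and no term, Arhgef17 and Notch3 did not pass (adjusted p = 0.0655 and 0.0738), and the other 10 did. Of 7 endothelial markers, 1 fell without the term, 7 with it and 1 with the offset alone, and of 7 smooth muscle markers 4, 5 and 1. The shares of all genes called lower in these fits were 3.25%, 15.2% and 0.629%. Vwf is itself 1 of the 7 endothelial markers, and Notch3 is 1 of the 7 smooth muscle markers. The endothelial call without the term, and with the offset alone, was Vwf, so these counts are not separate from the falls named above.

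**Figure D4:**
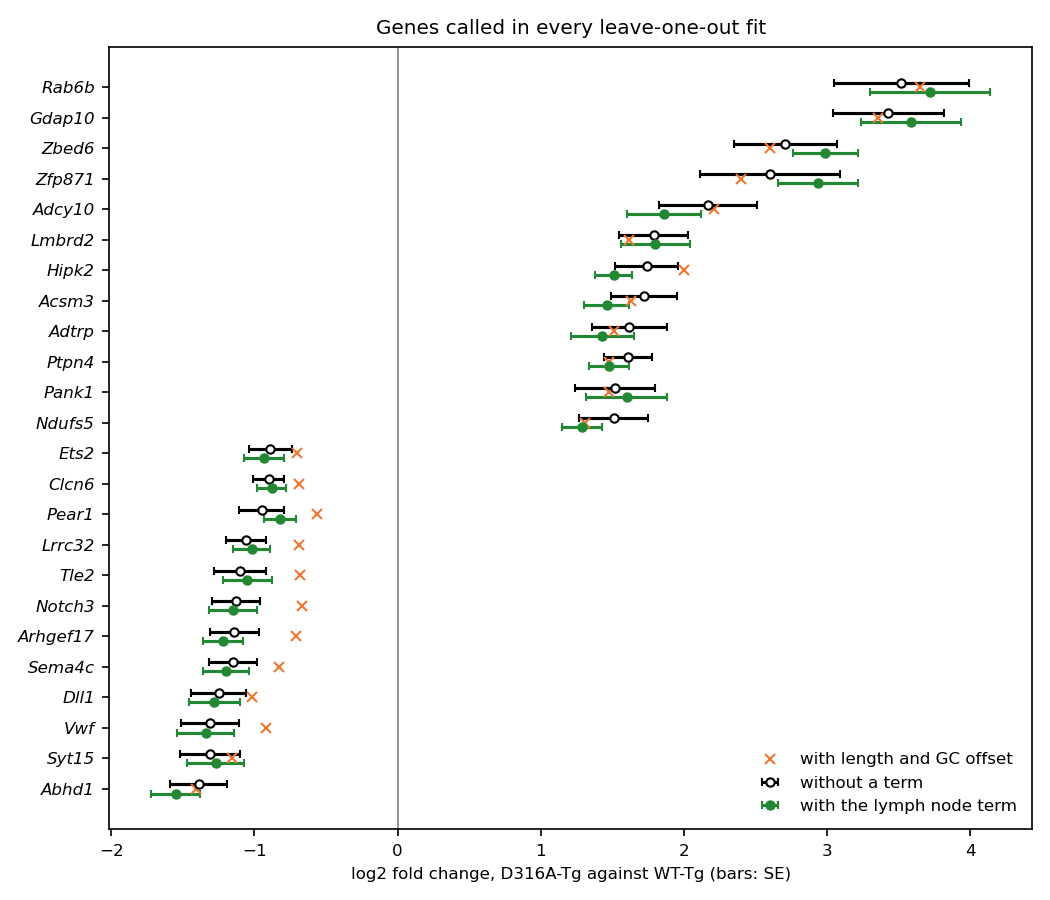
Log2 fold change (x axis) of the 12 largest rises and 12 largest falls among genes called in both fits and without any 1 library. Open circles are the fit without a term and green circles that with the lymph node term, each with its SE, and crosses the fit with a length and GC offset. Rises span 1.51 to 3.52 and falls -0.89 to -1.39 without the term, and the crosses of the falls lie nearer to 0 for all but Abhd1.

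Among the 69 rises, 8 more genes were picked after their values were seen and are given as a description. Pikfyve, the lipid kinase of endosomes and lysosomes (ENSMUSG00000025949, chr1:65186683-65278695, plus strand), ran from 13.3 to 18 CPM in WT-Tg (median 15.7) and from 30.7 to 32.7 CPM in D316A-Tg (median 31.4). The groups were far apart for their spread, at log2FC 1.01 (SE 0.09, adjusted p = 0.000548) without the term and 1.01 (SE 0.08, adjusted p = 8.73e-05) with it. Fnip1, the folliculin partner that binds AMPK (ENSMUSG00000035992, chr11:54438199-54518235, plus strand), ran from 20.1 to 28.9 CPM in WT-Tg (median 22.1) and from 38.2 to 48.6 CPM in D316A-Tg (median 41.3), at log2FC 0.82 (adjusted p = 0.00544) without the term and 0.84 (adjusted p = 0.000712) with it. Mtor, the growth kinase that AMPK opposes (ENSMUSG00000028991, chr4:148448611-148557683, plus strand), ran from 51.8 to 81.3 CPM in WT-Tg (median 63.8) and from 84.8 to 125 CPM in D316A-Tg (median 104), at log2FC 0.73 (adjusted p = 0.0144) without the term and 0.63 (adjusted p = 0.00125) with it. The lipid transfer genes Vps13a, Vps13c and Vps13d had log2 fold changes of 0.85, 0.76 and 0.62 without the term, and Lrpprc, which stabilises mitochondrial messages, and the deubiquitinase Usp9x had 0.60 and 0.80.

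The fold changes followed the base composition of the genes. With genes split into 5 equal bins by exonic GC content, the median log2 fold change was 0.10 in the lowest bin (27.5 to 44% GC) and -0.30 in the highest (55.4 to 85.7%), and 0.15 and -0.27 with the term. In the lowest bin 335 genes were called higher and 6 lower without the term, and in the highest 47 higher and 283 lower. The difference between the highest and the lowest bin, as median log2 deviations from each gene's mean, was 0.07 to 0.28 in the WT-Tg libraries and -0.30 to 0.08 in the D316A-Tg libraries, with only D316A-Tg 10 inside the WT-Tg range (exact permutation test of 6 against 6, two-sided p = 0.00433). Of the 121 genes above, 52 of 67 rises with a GC value were in the lowest 2 bins and 49 of 52 falls in the highest 2. With an offset for gene length and GC, 538 genes were called (3.56%), 443 higher (2.93%) and 95 lower (0.629%), so that the share of higher calls went from 62% to 82.3%. With the offset and the term together 3142 were called, 1829 higher (12.1%) and 1313 lower (8.69%). In that fit 14 of 16 mitochondrial chaperones and proteases, 13 of 23 superoxide and peroxide enzymes, 12 of 21 peroxisome and 15 of 31 proteasome genes rose. With the offset alone these lists had 6, 4, 1 and 3 rises. Of the 69 rises 62 were called with the offset alone and 66 with the offset and the term, and of the 52 falls 26 and 34. Of the genes named above as called with the term, Arrdc2, Atr, Bax, Bid, Bnip3, Dusp1, Dusp8, Ephx1, Ercc1, Gclm, Gsta3, Hsf1, Icam1, Irs2, Nbn, Nfkb2, Prkaa2, Prkab1, Psmc6, Rpl15, Shmt2, Slc3a2, Slc7a5, Socs3, Stat2 and Syvn1 did not pass once the offset was added (adjusted p from 0.0501 for Dusp8 to 0.62 for Nfkb2). Of those called without the term, Arhgef17, Canx, Gsta4, Hsd11b1, Hsp90aa1, Hspa4l, Hspa9, Insr, Jund, Notch3, Opa1, Pdk4, Pex13, Pex3, Prdx1, Psma1, Psmc6, Sod2, Syvn1, Yme1l1 and Zfp36 did not pass with the offset alone (adjusted p from 0.0511 for Hspa4l to 0.121 for Psmc6). What sets the trend with GC was not tested.

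**Figure D5:**
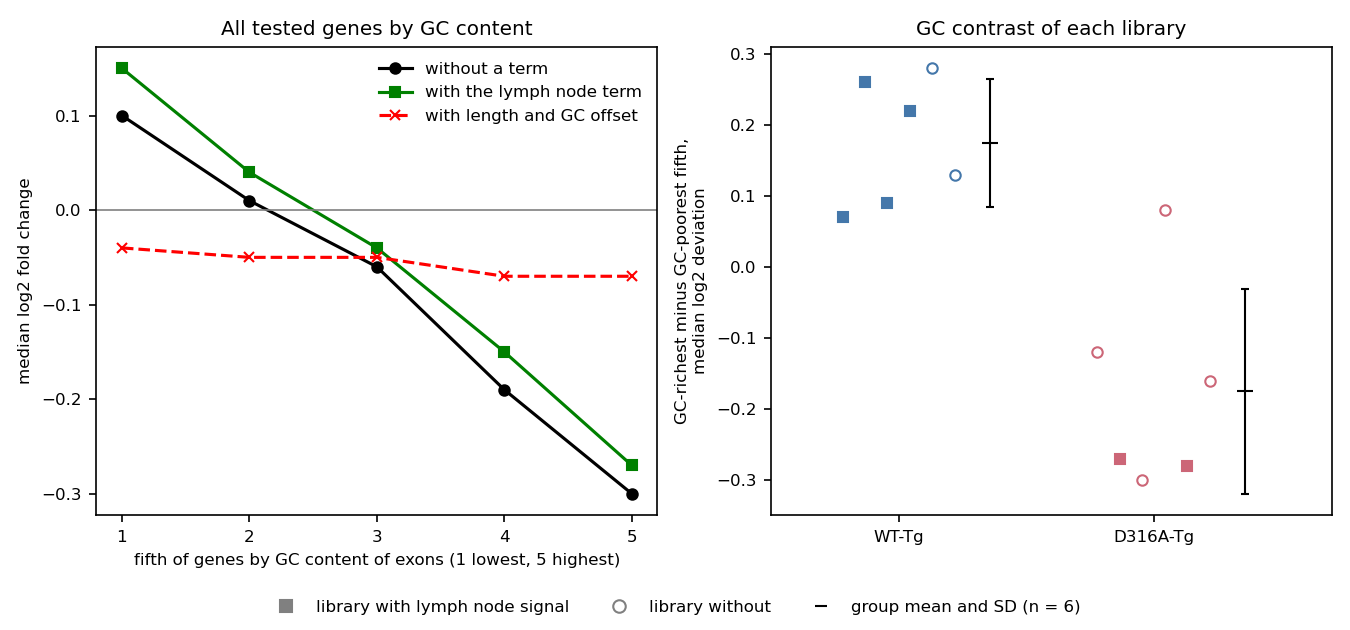
Left, median log2 fold change (y axis) of tested genes by bin of exonic GC content (x axis, 1 lowest to 5 highest), without a term (black), with the lymph node term (green) and with a length and GC offset (red). Right, the GC contrast of each library (y axis, median log2 deviation of the highest bin minus that of the lowest); squares are libraries with node signal, bars the mean and SD of 6, and the WT-Tg libraries lie at 0.07 to 0.28.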

How the data were processed

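The mRNA of inguinal subcutaneous white fat was sequenced on stranded libraries (TruSeq stranded mRNA, per the labels' protocols), and the authors deposited whole-number read counts per gene, with the chow and high-fat diet mice in separate tables. Tools in the submitters' processing notes are STAR 2.4.1, bcl2fastq, FastQC and DESeq2, with mm10 as the build. The labels give bcl2fastq 2.20.0.422. Which tool counted the reads, with which annotation and strand setting, is not given in the sources used here, so overlapping genes are named as uncertain. Only the chow table was used; the 12 columns of the other table were not used here.

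Counts of 39017 genes were tested with edgeR 4.0.16 in R 4.3.3 (quasi-likelihood test, robust, TMM scaling, filterByExpr), which left 15249 genes, with Benjamini-Hochberg adjusted p under 0.05 as the threshold over all of them. CPM are TMM-scaled. The SE of a log2 fold change was taken as its size over the root of the F statistic. The lymph node term is 1 for libraries with Glycam1 above 1 CPM and 0 otherwise. Depth was 13254536 to 17766546 counts per library; no replicate pair agreed within sampling noise (lowest chi-square per degree of freedom 14.52 within a group). Positions, lengths, GC content and overlaps came from GENCODE M21 (mm10), which held 96.6% of the table's gene IDs, and promoters from RefSeq (GRCm38.p6). The mean log2 CPM of a list used a prior count of 2. The length and GC offset was a loess trend (span 0.3) in each library. Alternatives were RLE and upper-quartile scaling, DESeq2 1.42.0, limma 3.58.1 with voom and quality weights, other filters, marker covariates, subsets of libraries and each library left out.

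The comparison, the 22 gene lists, the 14 marker lists and the named-gene rule were chosen with earlier results of these data known; 602 of 603 list genes were matched. Named are Prkag1; the 12 largest changes per direction among genes called in both fits and without any 1 library, where the higher group averages 5 CPM or more; per list, at most 4 members, those of lowest adjusted p; and list members whose call differs between the fits. Some list members that meet this rule are not reported here.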

Additional observations from a re-analysis of the deposited data

Results flagged for a closer look

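In 12 of the 338 groups of 6 libraries checked, 1 library lay far from the other 5. For 6 independent values from 1 normal distribution, chance marks about 1 in 20 groups. The groups here mix libraries with and without node signal and reuse the same 12 libraries. That rate therefore cannot tell how many of these marks chance would give. WT-Tg 6, the library with the most skeletal muscle marker RNA (12182 CPM), was high for Prkaa2 at 29.9 CPM (8.03 to 13.9 in the other WT-Tg libraries), for Prkag3 at 14.8 CPM (0.57 to 3.76) and for Dnajb9 at 35.5 CPM (24.5 to 28.2). D316A-Tg 8, a library with lymph node signal, was high for the lipocalin gene Lcn2 at 20.3 CPM (0.759 to 4.68), for Tle2 at 9.43 CPM (4.45 to 5.44) and for Pear1 at 40.3 CPM (21.3 to 24.9). The same library was low for Dnajc3, a co-chaperone of the ER, at 109 CPM against 119 to 121. In WT-Tg, Dnajc3 was low in library 2, at 95.1 CPM against 105 to 112. D316A-Tg 9, the library with the largest mitochondrial genome share (11.5% of counts), was high for Pdk1 at 230 CPM (138 to 172) and for Cycs at 33.3 CPM (16.7 to 22.8). WT-Tg 5, with the most Schwann cell marker RNA (944 CPM), was high for Dusp10 at 53.9 CPM (24.4 to 33.8) and for the mean log2 CPM of metallothioneins and metal handling, at 5.94 (5.25 to 5.44). The part of these libraries' other features in those values was not tested.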

How the results depend on the processing

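No paired analysis was possible because the WT-Tg libraries are numbered 1 to 6 and the D316A-Tg libraries 7 to 12, so the groups share no number. Against 1303 genes called without a term, DESeq2 called 2940, voom with quality weights 10826, no low-count filter 524, a skeletal muscle score 299, the lymph node term 4412, that term with the muscle score 2574, the libraries without node signal alone 2305, those with it alone 148 and the length and GC offset 538. Leaving out 1 library gave 140 to 3360. The cause was not tested, except that the 2 subsets hold fewer libraries. With the node term (4412), adding the muscle score gave 2574, and leaving out 1 library 2647 to 4742; the muscle score, the offset and voom beside the node term were chosen after seeing the data. RLE and upper-quartile scaling and a mean count of at least 50 stayed within 1.5 times. Under voom without the term the median log2 fold change was 0.22 for ER chaperones, 0.01 for ATF4 targets, 0.82 for mitochondrial chaperones, 0.78 for NRF2 targets, 0.64 for metal handling, 0.49 for hypoxia, 0.62 for FOXO targets and 0.94 for peroxisome genes. With the node term it was -0.01 for ATF4 targets and -0.09 for acute phase genes, and with the muscle score too 0.27 for mitochondrial chaperones, -0.06 for acute phase genes and 0.18 for peroxisome genes. The median of NRF2 targets was 0.12 with the node term and 0.05 with the muscle score too, and that of hypoxia genes 0.18 and 0.10. Without node libraries the median was 0.02 for ATF4 targets, 0.04 for stress kinase feedback, -0.05 for acute phase genes and 0.16 for ribosomal proteins. With node libraries only it was -0.01 for ATF4 targets, 0.15 for p53 targets and -0.07 for acute phase genes. With the term and the offset it was -0.09 for stress kinase feedback, -0.01 for BCL2 family genes and 0.11 for DNA repair. Leaving out 1 library moved these medians by over 1.5 times or across 0, without the term to between -0.16 and 0.00 for ATF4 targets, -0.02 and 0.13 for ER chaperones, 0.12 and 0.24 for heat shock, 0.14 and 0.45 for metal handling, 0.04 and 0.26 for the glucocorticoid response, -0.47 and -0.21 for stress kinase feedback, -0.58 and -0.10 for acute phase genes, -0.39 and -0.17 for ribosomal proteins and -0.22 and 0.04 for AMPK subunits. With the term these ranges were -0.09 to -0.00 for ATF4 targets, -0.06 to 0.06 for ER chaperones, 0.04 to 0.14 for heat shock, 0.07 to 0.17 for metal handling, -0.10 to 0.08 for the glucocorticoid response, -0.24 to -0.07 for stress kinase feedback, -0.15 to -0.04 for acute phase genes, -0.09 to 0.07 for ribosomal proteins, -0.25 to -0.07 for AMPK subunits, 0.06 to 0.17 for NRF2 targets, -0.18 to -0.09 for p53 targets, 0.09 to 0.18 for hypoxia, 0.10 to 0.18 for FOXO targets, -0.25 to -0.07 for interferon genes, -0.16 to -0.04 for BCL2 family genes and -0.06 to 0.08 for DNA repair. When 1 library was left out, the medians of the mitochondrial, peroxide, peroxisome and proteasome lists stayed within 1.5 times in both fits. Other settings moved them more. With node libraries only, the median was 0.35 for mitochondrial chaperones, 0.35 for peroxide enzymes, 0.24 for peroxisome and 0.17 for proteasome genes. Without a term over all 12 libraries these were 0.56, 0.58, 0.56 and 0.41. Among single named genes, 5430 values stayed on the same side of the threshold, 326 passed it newly and 620 lost it. Staying on the same side did not always mean the same direction. Under voom without the term Atm went from 0.48 to -0.52, Sesn3 from 0.26 to -0.47 and Irs2 from -0.32 to 0.02. Sod3 at 0.58, Cryab at 1.00 and Atr at -0.44 also changed sign under voom without the term (from -0.10, -0.11 and 0.03). At this depth, genes under the filter on low counts were not tested.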
